A study of Homo sapiens with 8 samples.

Results

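YAP and TEAD genes are the best known read-out of the Hippo pathway. The 10 genes described here, of 19974 protein-coding genes on chromosomes 1 to 22 and X, were taken from a list of names: the targets CCN1, CCN2, ANKRD1, AMOTL2, AXL, AJUBA and TGFB2, and the pathway genes YAP1, TEAD1 and LATS2. Their positions came from the RefSeq gene table (GRCh38.p14), and every peak within a gene or 20 kb either side was collected. Open chromatin was mapped with ATAC-seq (the transposase Tn5 cuts and tags DNA that is accessible) in mitotic hTERT RPE-1 cells, a telomerase-immortalised human epithelial line. All 8 libraries came from the genotype Plk1-/- EGFP-Plk1as, in which the mitotic kinase Plk1 is replaced by a tagged form that the bulky purine analog 3MB-PP1 inhibits. All cells were held in prometaphase with 5 µM STLC, a kinesin-5 inhibitor, for 16 h, shaken off, and kept in STLC for a further 2 h with 0.5% DMSO (4 libraries) or 10 µM 3MB-PP1 (4 libraries). The comparison asks how accessibility at these genes in mitosis depends on Plk1 activity. Mitotic index was above 95% and each reaction used 50000 cells. Cells with unmodified Plk1 given 3MB-PP1 were not analysed here, so inhibition of Plk1as and other actions of 3MB-PP1 cannot be told apart.

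The Hippo kinase cascade ends in LATS1 and LATS2, which phosphorylate the coactivator YAP1 and keep it in the cytoplasm. Unphosphorylated YAP1 enters the nucleus and binds TEAD factors, among them TEAD1, which carry it to DNA through a short core motif. CCN1 and CCN2 encode secreted matricellular proteins and ANKRD1 a nuclear and sarcomeric ankyrin-repeat protein, and all are widely used target genes in adherent epithelial cells.

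Each library was deposited as its own list of peaks, so the data say where a peak was called, how long it was and how it ranked. The DMSO lists held 150577 to 199042 peaks and the 3MB-PP1 lists 170682 to 252752, with median peak widths of 355 to 409 bp and 269 to 324 bp, so peaks were narrower with 3MB-PP1 across the whole lists. The smallest peak width in a list was 114 to 135 bp with DMSO and 90 to 109 bp with 3MB-PP1, without overlap. Why the smallest width differed was not tested. Read depth is unknown. Of the member windows, the DMSO lists had 73 to 102 peaks in all and the 3MB-PP1 lists 85 to 135. In both groups, the odd-numbered lists had a higher share of peaks on chromosome X (0.868% to 0.933%) than the even-numbered ones (0.595% to 0.694%), a split seen in the data and of unknown origin. Differences are therefore also given within odd and within even replicate numbers. Of 8 retinal pigment epithelium markers, MITF and PMEL had a start-site peak in all 8 lists, RPE65 in none and the other 5 in some. All 4 markers of the line (KRT8, KRT18, CDH2, VIM) had one in all 8 lists. Among 6 genes of other lineages, PTPRC and ALB had none, CD3E had one in all 8 and 3 in some.

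The promoter sequences show where the TEAD core lies under the start-site peaks of these genes. They are the 250 bases upstream of RefSeq start sites that a peak covered in all 8 lists and that hold the core upstream, printed 5′ to 3′ on the gene's strand. Capitals mark the TEAD core, GGAATG, or CATTCC where the core is on the opposite strand. For AMOTL2 the start is the inner one of its annotated starts, and only the core with its neighbouring bases is shown.
CCN2 (chr6:131951373-131951622, minus strand): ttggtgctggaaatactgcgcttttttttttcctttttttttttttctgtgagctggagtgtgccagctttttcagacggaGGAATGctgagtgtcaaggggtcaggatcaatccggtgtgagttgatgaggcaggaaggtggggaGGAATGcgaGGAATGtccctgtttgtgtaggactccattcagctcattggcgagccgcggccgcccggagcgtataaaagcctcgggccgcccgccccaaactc
ANKRD1 (chr10:90921088-90921337, minus strand): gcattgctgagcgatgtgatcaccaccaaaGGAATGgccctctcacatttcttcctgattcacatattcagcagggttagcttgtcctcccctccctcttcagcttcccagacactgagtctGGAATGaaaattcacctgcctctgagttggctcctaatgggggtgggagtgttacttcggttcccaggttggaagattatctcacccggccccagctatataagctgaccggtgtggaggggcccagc
TGFB2 (chr1:218345086-218345335, plus strand): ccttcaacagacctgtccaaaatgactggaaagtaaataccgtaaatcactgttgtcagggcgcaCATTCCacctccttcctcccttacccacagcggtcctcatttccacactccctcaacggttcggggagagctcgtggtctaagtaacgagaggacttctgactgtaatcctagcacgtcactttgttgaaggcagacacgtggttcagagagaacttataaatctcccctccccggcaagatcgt
YAP1 (chr11:102110197-102110446, plus strand): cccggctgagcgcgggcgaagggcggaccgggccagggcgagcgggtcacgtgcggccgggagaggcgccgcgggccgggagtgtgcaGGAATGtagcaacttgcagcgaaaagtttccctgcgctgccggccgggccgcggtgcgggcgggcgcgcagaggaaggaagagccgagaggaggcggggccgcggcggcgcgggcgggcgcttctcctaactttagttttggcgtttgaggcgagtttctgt
AMOTL2, inner start (chr3:134374501-134374526, minus strand): gaaactctcaCATTCCtggcatagca

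Searched on both strands over 35116 promoter windows of 300 bp (250 before to 50 after a start), the TEAD core was found in 14.0%, at least 2 copies in 1.37% and at least 3 in 0.128%. CCN2 had 3 copies, beginning 169, 104 and 95 bases upstream of its start. ANKRD1 had 2, at 220 and 128 bases upstream, with the AP-1 motif TGANTCA between them at 195 bases and overlapping neither. That motif was found in 7.71% of the windows and in no other member window. TGFB2 had 1 TEAD core at 185 bases and YAP1 had 1 at 162 bases upstream. The inner AMOTL2 start had 1 at 69 bases. The LATS2 window held 1 in its transcribed part. The inner AXL and AJUBA starts held 1 each, but no list had a peak over those starts. No core was found at the outer starts of AMOTL2, AXL or AJUBA. The CArG box of SRF, present in 1.29% of the windows, was found in none of the member windows. CCN1 and TEAD1 had no promoter entry. A match is a description of letters and does not show binding.

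Start-site peaks were present in all 8 lists for 9 of the 10 genes, where 10435 of 19974 protein-coding genes (52.2%) had one. The start-site peak is the peak overlapping the 300-bp promoter window of the outermost start, or the one with the highest pileup where several did. Further peaks of a split region are not part of its length. For CCN1 and TEAD1 the start-site peak was taken within 1 kb of either annotated gene end. The clearest differences between treatments were at ANKRD1 and TGFB2, where the peak over the start was 65.8% and 62.8% shorter with 3MB-PP1. All peaks of the ANKRD1 and TGFB2 start regions together covered 42.0% and 27.4% less (limma adjusted p = 0.0321 and 0.0872). Start-site peaks of CCN2 and YAP1 were shorter by 21.6% and 15.1%, without overlap between groups, and did not pass the test across all genes. Those of CCN1, AMOTL2, TEAD1, LATS2 and AJUBA had overlapping lengths.

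ANKRD1 (chr10:90912096-90921087, minus strand) is a strongly inducible YAP target. Its start-site peak was 2039, 1998, 2053 and 2053 bp long in DMSO replicates 1 to 4. With 3MB-PP1 it was 676, 719, 657 and 730 bp. The groups were far apart and each was tight. Mean length was 2036 ± 26.0 bp (SD, n = 4) with DMSO and 695.5 ± 34.7 bp with 3MB-PP1. On the log2 scale the difference was -1.55 ± 0.07 (SE; limma, adjusted p = 7.67e-05), and -1.62 within the odd and -1.48 within the even replicate numbers. With the replicate number as a block the adjusted p from limma was 0.0139. The ratio of mean lengths was smaller in 0.594% of the 10435 genes.

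The intervals show which stretches were called. Each DMSO list had 1 unbroken peak, from 833 to 985 bp upstream of the ANKRD1 start to 1067 to 1200 bp downstream. Each 3MB-PP1 list had 2 peaks, the first ending 4 to 106 bp past the start and the second beginning 577 to 580 bp past it. The uncalled gap between them was 553, 473, 575 and 521 bp long. The second peaks had a -log10 q of 3.02 to 7.98, and the gaps may still hide signal below the threshold. Both TEAD cores and the AP-1 motif printed above lay inside the upstream peak in every list, and the gap lay within the gene. The upstream edge was also nearer the start, at 612 to 673 bp with 3MB-PP1. The merged start region (chr10:90919887-90922072) had 2036 ± 26.0 bp covered with DMSO and 1182 ± 124 bp with 3MB-PP1 (log2 difference -0.79, limma adjusted p = 0.0321). That call was lost with the replicate block (limma adjusted p = 0.0912) and without any 1 of 5 libraries, DMSO replicates 1, 2 and 3 and 3MB-PP1 replicates 2 and 4 (limma adjusted p of 0.0567 to 0.162), and by limma without trend (adjusted p = 0.0888). The difference itself was -0.80 to -0.75 in these fits.

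TGFB2 (chr1:218345336-218444619, plus strand) encodes a secreted transforming growth factor-beta ligand. Its start-site peak measured 3049, 3828, 3971 and 3944 bp with DMSO. With 3MB-PP1 it measured 1394, 1422, 1343 and 1339 bp. The longest 3MB-PP1 peak was thus well below the shortest DMSO peak, that of replicate 1. The means were 3698 ± 437 bp and 1374 ± 40.4 bp (SD, n = 4), a log2 difference of -1.42 ± 0.09 (SE; limma, adjusted p = 0.000278). Within odd and even replicate numbers it was -1.35 and -1.49, and with the replicate block the adjusted p from limma was 0.0159. Here the ratio was smaller in 0.901% of genes.

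As at ANKRD1, a single DMSO interval corresponded to several with 3MB-PP1, and the gaps were downstream of the start. The DMSO peak ran from 390 to 415 bp upstream of the TGFB2 start to 2633 to 3580 bp downstream. With 3MB-PP1 the upstream edge stayed at 393 to 420 bp, and the first peak ended 930 to 1001 bp past the start. A further peak began at 1375 to 1428 bp, and replicates 1 and 4 had one more, from 2928 and 2890 bp. The further peaks had a -log10 q of 2.44 to 3.77, and the last ones of replicates 1 and 4 had 1.41 and 1.09. The smallest value in every list was 1.0, so the gaps may still hide signal below the threshold. The TEAD core at 185 bases upstream was inside the first peak in all 8 lists. Covered length in the merged region (chr1:218344916-218348916) was 3698 ± 437 bp with DMSO and 2686 ± 251 bp with 3MB-PP1 (log2 difference -0.46, limma adjusted p = 0.0872). TGFB2-AS1 also starts in that region, and ATAC-seq does not assign a peak to a strand.

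**Figure D1:**
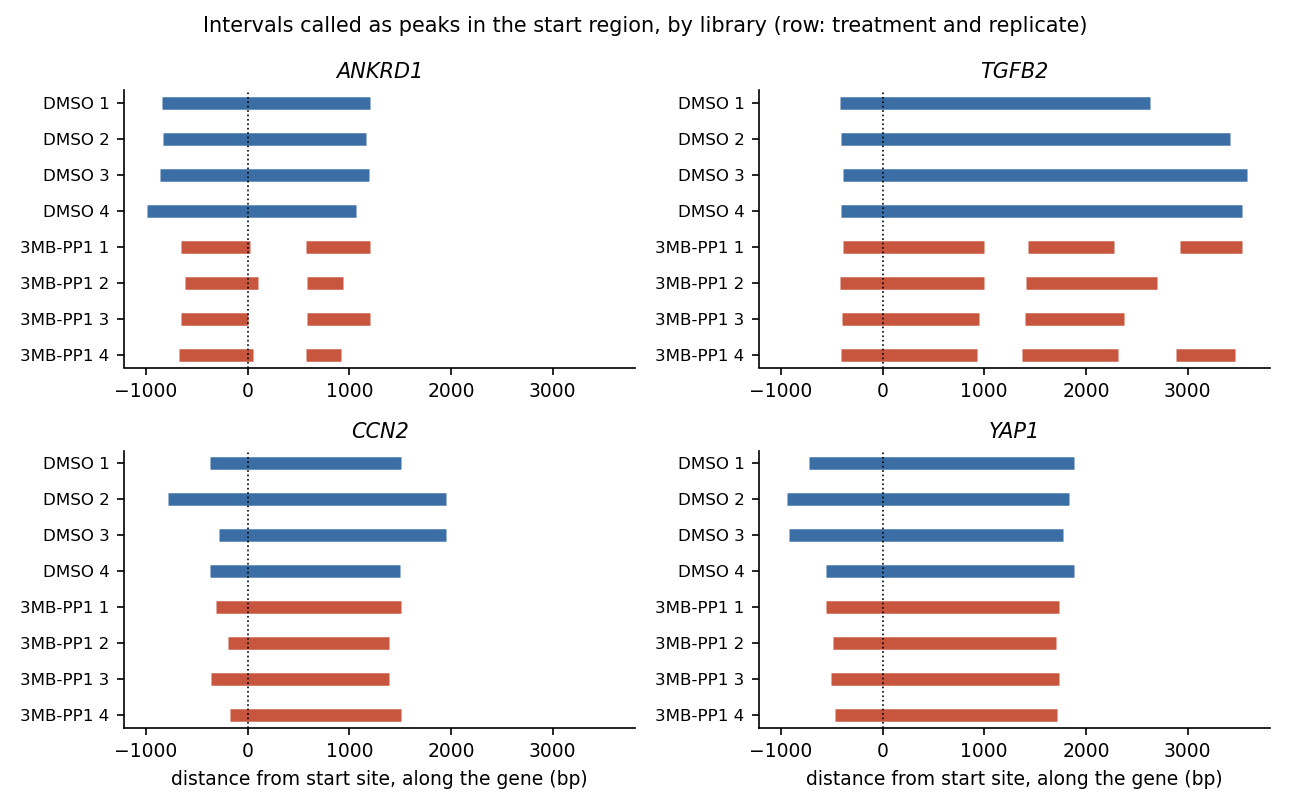
Intervals called as peaks in the start region of ANKRD1, TGFB2, CCN2 and YAP1, one row per library, against distance from the start site in bp along the gene. ANKRD1 and TGFB2 have 1 interval in each of the 4 DMSO lists and 2 or 3 in each 3MB-PP1 list, while CCN2 and YAP1 keep 1 in all 8.

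Regions split into more peaks in every 3MB-PP1 list were uncommon. Of 36624 merged regions with a peak in all 8 lists, 227 (0.620%) had more peaks in every 3MB-PP1 list than in any DMSO list. Of the 32 such regions in the member windows, 2 did, the start regions of ANKRD1 and TGFB2. Among 8323 of these regions that hold the outermost start of a protein-coding gene with a promoter entry, 58 (0.697%) did, and 2 of 7 in the members. Both were noticed in these data before they were counted.

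CCN2 (chr6:131948176-131951372, minus strand), formerly CTGF, has 3 copies of the TEAD core in the promoter printed above. Its start-site peak was 1886, 2731, 2229 and 1877 bp with DMSO and 1817, 1582, 1757 and 1680 bp with 3MB-PP1. All DMSO peaks were the longer, though replicates 1 and 4 only just, and most of the difference came from DMSO replicates 2 and 3. The log2 difference was -0.34 ± 0.12 (SE; limma, adjusted p = 0.173), -0.20 within odd and -0.47 within even replicates, and -0.22 without DMSO replicate 2. The part upstream of the start reached 280 to 781 bp with DMSO and 169 to 363 bp with 3MB-PP1, so the core that begins 169 bases upstream was at the very edge of the peak in 3MB-PP1 replicate 4.

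YAP1 (chr11:102110447-102233424, plus strand) encodes the coactivator. Peak lengths at its start were 2603, 2773, 2697 and 2436 bp with DMSO and 2294, 2195, 2244 and 2185 bp with 3MB-PP1. Here too every DMSO value was the higher. YAP1-DT also starts in the merged region of this peak, so the peak cannot be assigned to YAP1 alone. The log2 difference was -0.24 ± 0.05 (SE; limma, adjusted p = 0.0804), close to the all-gene median of -0.18. It passed without DMSO replicate 4 (limma adjusted p = 0.0319) and over peaks with a -log10 q of at least 5 (limma adjusted p = 0.0471). Under that q minimum ANKRD1 also passed (limma adjusted p = 1.09e-05), while CCN1, AMOTL2, TGFB2 and AJUBA no longer had a start-site peak in all 8 lists and could not be tested. Together, 4 of 9 members had shorter peaks without overlap (exact two-sided permutation p = 0.0286 each, the smallest that 4 against 4 can give), and 14.1% of all 10435 genes did. By limma 2 of 9 passed at an adjusted p of 0.05 against 2.07% of genes (0.862% with the replicate block). Fitted alone as 2 against 2 libraries, the odd replicate numbers gave limma adjusted p of 0.049 for ANKRD1 and 0.0636 for TGFB2, and the even ones 0.0984 and 0.0555. The exact test, adjusted over all genes, called 0 genes (1482 at an unadjusted p of 0.05 or less). As no exact p can be below 0.0286, it could call a gene only if most genes reached that minimum. Its count of 0 therefore decides nothing. Limma called 217 genes, 1 of them with a longer peak.

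The other target genes had smaller differences. CCN1 (chr1:85580761-85583950) had a peak of 1792, 1804, 1833 and 1611 bp with DMSO and of 1634, 1301, 1811 and 995 bp with 3MB-PP1, overlapping because of 3MB-PP1 replicates 1 and 3 (log2 difference -0.33, limma adjusted p = 0.284). That difference was -0.08 within odd and -0.58 within even replicates, and -0.17 without 3MB-PP1 replicate 4. AMOTL2 (chr3:134355345-134375417, minus strand), a junctional scaffold that binds YAP, had 2097, 2647, 2184 and 2527 bp with DMSO and 2182, 1930, 2101 and 1884 bp with 3MB-PP1. Its difference was 0.00 within odd and -0.44 within even replicates. AJUBA (chr14:22971177-22982551, minus strand), a LIM protein that binds LATS kinases, ranged from 1687 to 2886 bp with DMSO and from 1451 to 2788 bp with 3MB-PP1. Its SD of 559 and 573 bp exceeded the difference of the means, and the log2 difference was -0.37 within odd and -0.27 within even replicates. In DMSO replicate 4 the AJUBA start region was itself split into 2 peaks.

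AXL (chr19:41219223-41261766, plus strand), a receptor tyrosine kinase, was the only member without a start-site peak in every list. Its peak was 977, 1051, 960 and 972 bp long with DMSO and 1181, 862 and 816 bp in 3MB-PP1 replicates 1 to 3. No peak was called there in 3MB-PP1 replicate 4, which had the fewest peaks of that group. A list holds only peaks past its threshold, so a missing call may still hide signal, and the AXL peak had a -log10 q of only 1.79 to 4.45 where it was called.

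At the other pathway genes the lengths overlapped between treatments. TEAD1 (chr11:12674421-12944737) had a peak of 1354 to 1486 bp with DMSO and 1308 to 1409 bp with 3MB-PP1 (log2 difference -0.07, limma adjusted p = 0.492). LATS2 (chr13:20973036-21061586, minus strand) had 1317 to 1639 bp with DMSO and 1173 to 1703 bp with 3MB-PP1 (log2 difference -0.05, limma adjusted p = 0.811). The median log2 difference over the 9 members was -0.32, and -0.18 over all 10435 genes, of which 89.1% were negative. Whether the narrower peaks of the whole 3MB-PP1 lists had a part in the member values was not tested.

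**Figure D2:**
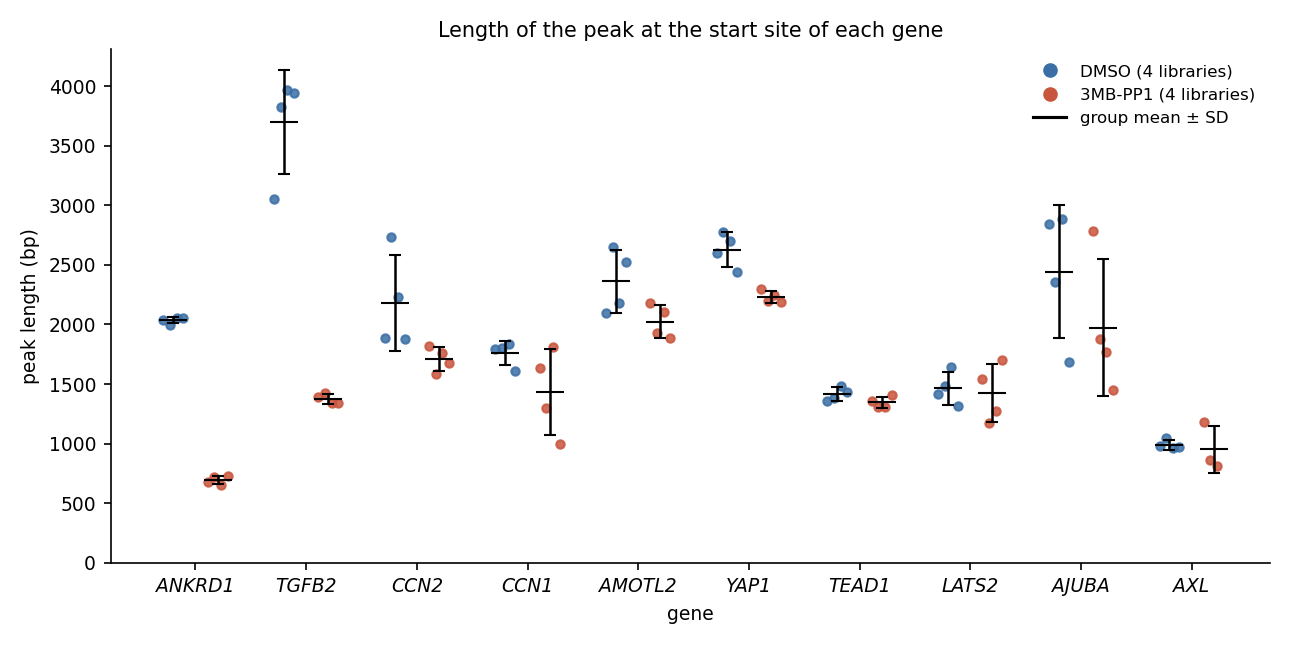
Length in bp of the peak at each gene's start site in 4 DMSO and 4 3MB-PP1 libraries, with the group mean and SD (AXL has 3 values with 3MB-PP1). ANKRD1 falls from 2036 to 695.5 bp and TGFB2 from 3698 to 1374 bp, while TEAD1 and LATS2 overlap. Further peaks of a split region are not counted. With them, 1182 bp (ANKRD1) and 2686 bp (TGFB2) were covered with 3MB-PP1.

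**Figure D3:**
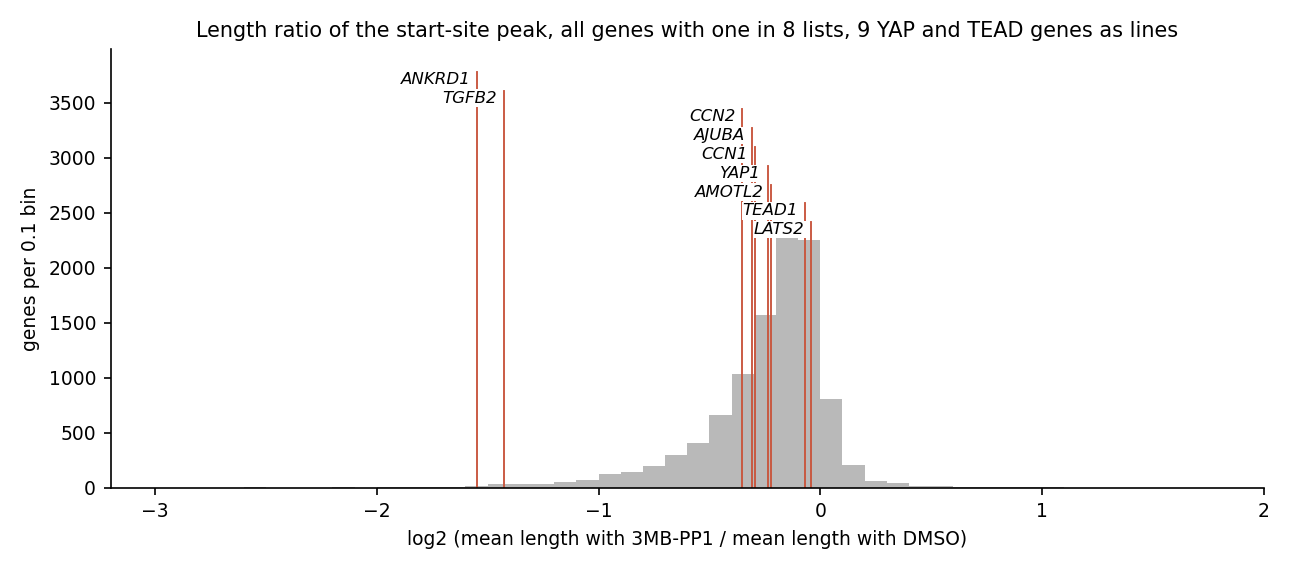
Number of genes per bin of the log2 ratio of mean start-site peak length (3MB-PP1 over DMSO), for 10435 genes, with 9 members as lines. ANKRD1 and TGFB2 lie in the far left tail, and the other 7 lie within the main body.

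The ranks of the shortened peaks overlapped between treatments. Peaks were ranked within their own list by pileup, the deposited coverage signal at the peak. The ANKRD1 start-site peak stood at percentiles of 95.3 to 96.3 with DMSO and 94.8 to 98.0 with 3MB-PP1. Its deposited fold enrichment was 3.91 to 4.39 and 4.20 to 5.38. TGFB2 stood at 96.0 to 97.1 with DMSO and 91.2 to 96.7 with 3MB-PP1. In none of the 9 members with 8 values did the groups lie apart, where 5.24% of genes did, in either direction. AXL stood at 95.0 to 96.3 with DMSO and at 96.5, 96.5 and 97.1 in the 3MB-PP1 lists that had the peak. TEAD1 ranked highest of the members (99.6 to 99.8 over all 8 lists), followed by CCN2 (98.0 to 99.1), and LATS2 had the lowest single value (89.4, in 3MB-PP1 replicate 4). YAP1, AMOTL2 and CCN1 came next, with group means between 96.1 and 98.0, and their ranges overlapped. Replicate 4 gave the lowest 3MB-PP1 percentile for all 9 members with 8 values.

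**Figure D4:**
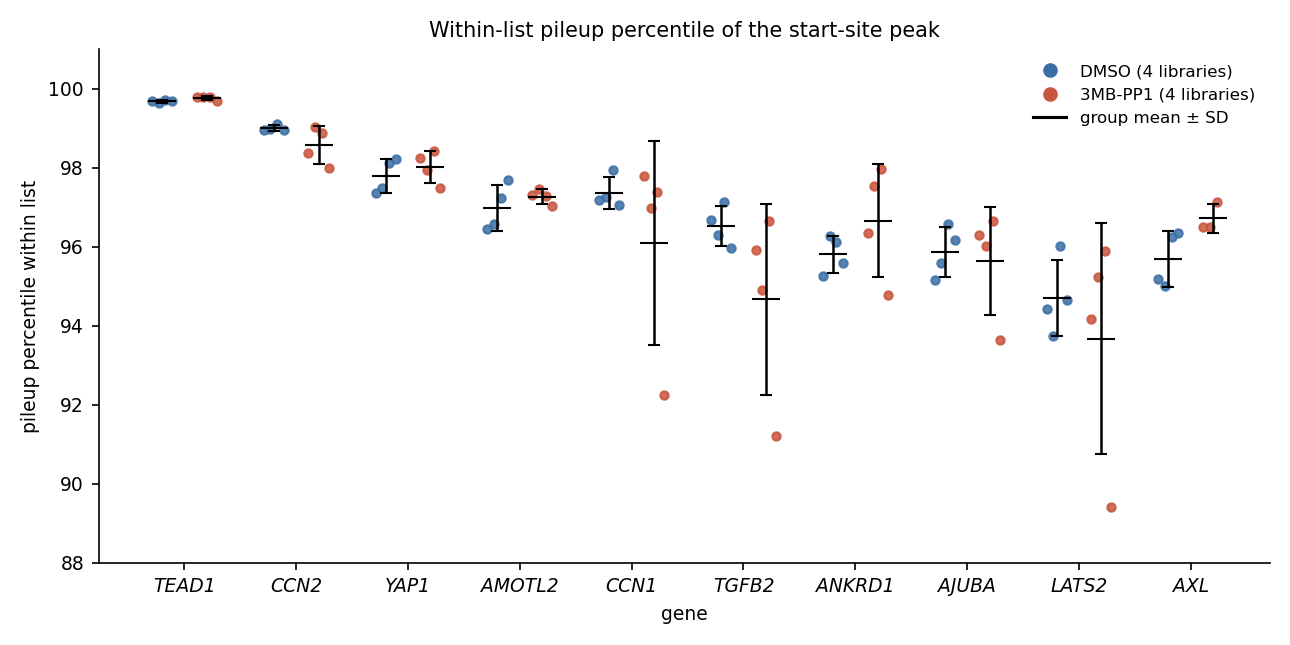
Percentile of the start-site peak by pileup within its own list, per library, with the group mean and SD; the axis starts at 88. The groups overlap for the 9 genes with 8 values, TEAD1 stays above 99.6, and AXL has no value in 3MB-PP1 replicate 4.

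Pileup as deposited was lower with 3MB-PP1 at the start sites of 8 of 9 members without overlap, where 54.9% of all genes showed the same. At CCN2 it was 86.1, 77.4, 100.5 and 54.7 with DMSO and 38.5, 45.1, 45.4 and 32.3 with 3MB-PP1. The exception was ANKRD1, with 28.9 to 46.5 and 22.9 to 34.8. The all-gene median was -0.64 on the log2 scale, the member median -0.69, and ANKRD1 stood at -0.48. By limma all 9 members passed at an adjusted p of 0.05, as did 8991 of 10435 genes, all lower, and 99.7% of genes were negative. For ANKRD1 the limma adjusted p reached 0.132 when 1 library was left out. No scaling between libraries is stated, so fewer fragments in a library and less signal at a site cannot be told apart.

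Across the whole windows, less sequence was called at most of the 10 genes with 3MB-PP1, but no member passed the test. Covered length was lower in 9 of 10, and in 70.1% of all genes, with medians of -0.36 and -0.14 on the log2(bp + 500) scale. TGFB2 had 7257, 9539, 9466 and 8898 bp with DMSO and 6226, 6119, 6801 and 5938 bp with 3MB-PP1. ANKRD1 had 4720, 5073, 5545 and 5106 bp against 4438, 3280, 3777 and 3712 bp. In both genes every DMSO value was the higher, as in 6.35% of all genes. Their log2 differences were -0.45 ± 0.10 and -0.39 ± 0.11 (SE; limma, adjusted p = 0.219 and 0.261). AJUBA had a difference of similar size, -0.44 ± 0.15 (limma, adjusted p = 0.289), with one DMSO library below the highest 3MB-PP1 library.

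CCN1 stood at -0.51 ± 0.25 (SE; limma, adjusted p = 0.394), with 4060 to 6477 bp and 2243 to 4783 bp in wide, overlapping groups. It was -0.32 without 3MB-PP1 replicate 4 and -0.26 in a window of 5 kb, where ANKRD1 was -0.67. The CCN1 window also holds the start of the neighbour DDAH1, whose region had means of 1894 bp with DMSO and 1634 bp with 3MB-PP1. The region of the CCN1 start-site peak had 1760 and 1464 bp. Another DDAH1 region (chr1:85568787-85571515) was called in 4 DMSO and 2 3MB-PP1 lists. The window difference therefore cannot be assigned to CCN1 alone, and the part of DDAH1 in it was not tested. AMOTL2 stood at -0.42, YAP1 at -0.34 (-0.15 without 3MB-PP1 replicate 4), CCN2 at -0.29, AXL at -0.11 and TEAD1 at -0.05, all with overlap (AXL and TEAD1 were positive, 0.06 and 0.12, when scaled to list totals). LATS2 was the only positive member (0.18, but -0.09 without DMSO replicate 2), with 2451 to 6565 bp and 3462 to 7201 bp. By limma 0 of 10 members and 0 of 19974 genes (0%) had an adjusted p of 0.05 or less. At an unadjusted limma p of 0.05 or less there were 4 members (TGFB2, ANKRD1, AJUBA and AMOTL2) and 14.1% of genes. The exact test had 1466 genes at an unadjusted p of 0.05 or less and called 0 after adjustment. Here too it could call a gene only if most genes reached its smallest p. When covered length was divided by each list's total, the all-gene median became 0.00, the member median -0.21, and 7 of 10 members were negative. Over peaks with a -log10 q of at least 5 the medians were -0.86 for the members and -0.21 for all genes. AJUBA stood at -2.25, TGFB2 at -1.46, AMOTL2 at -1.19, CCN1 at -1.01, TEAD1 at -0.95 and ANKRD1 at -0.76. No member passed (limma adjusted p of 0.243 or more). A whole peak below that minimum is left out of the covered length. The AJUBA start-site peak was below it in every 3MB-PP1 list (2.746 to 3.804) and in DMSO replicate 4 (4.001). Those of TGFB2, AMOTL2 and CCN1 were below it in some lists. How much of these differences came from peaks left out was not tested.

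**Figure D5:**
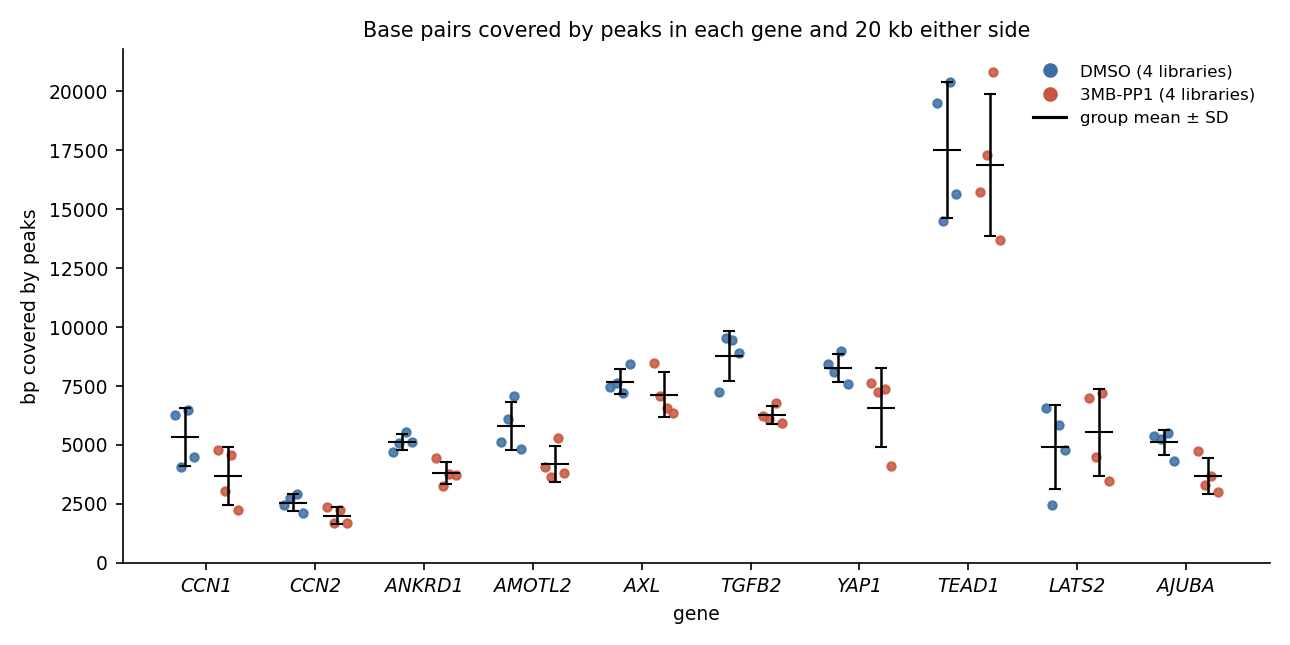
Base pairs covered by peaks in each gene and 20 kb either side, per library, with the group mean and SD. ANKRD1 and TGFB2 have no overlap between the groups; windows differ in length between genes, so heights are compared only within a gene.

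Peak number was higher with 3MB-PP1 in 7 of 10 members, as it was in most genes: the median log2 difference was 0.24 over the members and 0.21 over all genes, of which 23.2% were negative. Mean number with 3MB-PP1 over that with DMSO was 1.44 for YAP1, 1.35 for AXL and 1.34 for TEAD1, each with overlapping groups. LATS2 had the highest ratio, 1.97. The LATS2 window held 9, 4, 9 and 9 peaks with DMSO and 17, 12, 21 and 11 with 3MB-PP1. Every 3MB-PP1 count was above every DMSO count, as in 3.05% of genes, and no other member showed this. The difference was 0.95 ± 0.31 on the log2(number + 0.5) scale (SE; limma, adjusted p = 0.351), 1.03 within odd and 0.87 within even replicates. At the same time the median width of its peaks was 327 to 570 bp with DMSO and 166 to 314 bp with 3MB-PP1. TEAD1, with the longest window, had 23, 27, 30 and 33 peaks with DMSO and 34, 41, 49 and 27 with 3MB-PP1. CCN2 had the fewest, 1 to 4 in any list. By limma 0 members and 4 of 19974 genes (0.0200%) passed for peak number. An unadjusted limma p of 0.05 or less was found for 1 member and 2449 genes (12.3%). The adjusted exact test called 0 genes (640 unadjusted), and could call a gene only if most reached its smallest p.

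Median peak width in the window was smaller with 3MB-PP1 in all 10 members and in 89.8% of genes. It did not overlap between groups for LATS2 and YAP1, as in 14.2% of genes. YAP1 had 902, 1404, 687 and 502 bp with DMSO and 251, 439, 420.5 and 424 bp with 3MB-PP1 (log2 difference -1.12, limma adjusted p = 0.153), and LATS2 a log2 difference of -0.83 (limma adjusted p = 0.142). No member and no gene (0%) passed, with 4415 genes at an unadjusted p of 0.05 or less by limma and 2652 by the exact test, which also called 0 after adjustment. The member median was -0.59 and the all-gene median -0.49. For the highest pileup percentile in the window, 0 members and 0 genes passed by limma (0%, 2191 unadjusted) and 0 by the exact test (1228 unadjusted). For width and percentile alike, the adjusted exact test could call a gene only if most genes reached its smallest p.

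The 10 windows held 266 merged regions of the 8 lists. Of these, 32 (12.0%) were called in all 8 lists, against 6.23% of all 588244 regions, and 142 (53.4%) in only 1 list, against 51.9%. The number in all 8 lists was 9 of 98 for TEAD1, 4 of 29 for TGFB2, 4 of 27 for YAP1, 3 of 14 for ANKRD1, 3 of 39 for LATS2, 2 each for CCN1, AMOTL2, AXL and AJUBA, and 1 of 8 for CCN2. The region with the highest mean percentile held the start-site peak in 9 genes. In the AXL window it was the start of the neighbour HNRNPUL1 (chr19:41262230-41265503, mean percentile 99.9). Within AXL itself a region, chr19:41223376-41226512, ended just before the inner start and had a mean percentile of 98.9. It had 3031 ± 50.7 bp covered with DMSO and 2580 ± 288 bp with 3MB-PP1 (log2 difference -0.24, limma adjusted p = 0.172). This region was 1 peak in every DMSO list and in 3MB-PP1 replicate 2, and 2 peaks in 3MB-PP1 replicates 1, 3 and 4. Upstream of ANKRD1, a region centred at -9410 bp from the start (chr10:90929244-90931749, mean percentile 95.5) had 1860 ± 248 and 1537 ± 145 bp. There the split went the other way, with 2 peaks in DMSO replicates 3 and 4 and 1 in every other list.

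Covered length in regions of all 8 lists did not overlap between groups, lower with 3MB-PP1, in 5 of the 32 and in 10.9% of all such regions. These were the start regions of ANKRD1, TGFB2, CCN2 and YAP1, and the start of HAUS4, a neighbour of AJUBA (chr14:22956551-22958075, 1298 ± 99.0 and 771.8 ± 126 bp, limma adjusted p = 0.0859). Limma called 1 of the 32, the ANKRD1 start region, and 0.273% of all. The median log2 difference was -0.35 over the 32 and -0.27 over all.

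Regions found in one treatment only were rare. None of the 266 had a call in every DMSO list and in no 3MB-PP1 list (0.120% of all regions did). In the opposite direction there was 1 (0.148% of all), a region of 476 bp inside LATS2 (chr13:20998635-20999110). Its peaks ranked low, at percentiles of 6.24 to 61.2. In lists of equal length, or among peaks with a -log10 q of at least 5, there was no region of this kind. Without DMSO replicate 3 or 4, 1 region was called in every remaining DMSO list and in no 3MB-PP1 list, and without 3MB-PP1 replicate 1 there were 2 in the opposite direction.

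The other genes of the pathway, 32 in a separate list, showed no call. In covered length 0 of 32 passed by limma, 10 had an unadjusted p of 0.05 or less (14.1% of all genes), 27 were negative (70.1% of all genes) and the median was -0.28, between that of the members and that of all genes. Scaled to list totals, 21 were negative (49.3% of all genes) and the median was -0.12. Upstream regulators of the cascade (10 genes) had a median of -0.30, TEAD and YAP cofactors (7) -0.18, and other targets (15) -0.31. The most negative were the targets CRIM1 (14988 ± 2720 and 9004 ± 827 bp, log2 difference -0.69, limma adjusted p = 0.219) and IGFBP3 (-0.68, limma adjusted p = 0.378). The most positive were MOB1B, a LATS coactivator (3597 ± 420 and 4546 ± 1664 bp, log2 difference 0.25, limma adjusted p = 0.603), and DOCK5 (0.20, limma adjusted p = 0.631). A start-site peak was present in all 8 lists in 26 of the 32. None of the 26 passed the limma test of its length that ANKRD1 and TGFB2 passed, and their median log2 difference was -0.16.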

How the data were processed

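ATAC-seq peak lists of 8 libraries were used, 1 per library, grouped by title. Per the submitters' processing notes the tools include MACS2 and DESeq2 and the build is hg38; versions, the aligner and filters are not given in the sources used here. The deposited lists give a pileup (a signal, or coverage, with no stated scaling between libraries), a fold enrichment (a ratio to local background) and -log10 p and -log10 q values, all the authors' own and laid out as MACS2 writes them. Genes, promoter sequences and start sites came from RefSeq tables of GRCh38.p14. A promoter entry matched 8 of 10 members. How peaks were called can change their number and width.

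For each protein-coding gene with 20 kb either side, the peaks (at least 1 bp of overlap), the merged bp they cover, their median width and the highest within-list pileup percentile were computed. The 8 lists were merged into regions. Groups were compared with limma 3.58.1 (R 4.3.3, trended empirical Bayes) on log2(bp + 500), log2(number + 0.5), log2 width or percentile over all genes, with Benjamini-Hochberg adjustment, and by exact two-sided permutation over 70 assignments. Start-site peak length was to be tested by permutation; limma on its log2, the regions of all 8 lists, deposited pileup and the odd and even split were added after the data were seen. On simulated start-site lengths of 10435 genes, 38 of 50 planted log2 changes of -1.5 and 18 of 50 of -0.5 were recovered. The simulated noise was normal and independent between libraries. It held neither the odd and even split nor the shift seen over most genes, so recovery in the real lists may differ.

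The main limma fits and the exact test left libraries unpaired, and the replicate number entered only as a block in an alternative fit. Same-numbered libraries of the treatments deviated together (correlations of 0.322, 0.147, 0.183 and 0.261 over 19974 genes in log2 covered length). Differently numbered libraries of the same parity did so to a similar degree (0.091 to 0.169), and those of opposite parity did not (-0.302 to -0.108), so the numbers cannot be told apart from an odd and even grouping; the labels do not say what a number marks. No pair of lists shared more than 0.0339% of peaks with identical start and end, though 36624 merged regions had a peak in all 8 lists. Members and lists were chosen with earlier results of these data known. All members were named, with the most positive and most negative 2 genes of the pathway list, each member's highest-ranked region, and regions in 4 of 4 against 0 of 4 lists. Alternatives were a 5 kb window, a -log10 q of at least 5, lists of equal length, scaling to list totals, other pseudocounts, a minimum of 4 lists with a peak, merging within 500 bp, ranking by -log10 p, no trend, a replicate block and leaving out each library. The versions were matplotlib 3.10.9, scipy 1.17.1, pandas 2.3.3 and numpy 2.4.6, under Python 3.11.15.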

Additional observations from a re-analysis of the deposited data

Results flagged for a closer look

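In 6 of 78 groups and measures of the members, 1 library lay far from the other 3 of its treatment; chance alone gives about 1 in 20. Of the 6, 3 were in 3MB-PP1 replicate 4. There, 4102 bp were covered in the YAP1 window, against 7258 to 7632 bp in the other 3MB-PP1 libraries, the CCN1 start-site peak stood at a pileup percentile of 92.2 against 97.0 to 97.8, and the TEAD1 start-site peak at 99.7 against 99.8, a very small step. DMSO replicate 3 had 9 peaks in the AMOTL2 window, where the other DMSO libraries had 5 each. DMSO replicate 2 had 4 peaks in the LATS2 window, where the others had 9 each. The TGFB2 start-site peak was 3049 bp long in DMSO replicate 1 and 3828 to 3971 bp in the other DMSO libraries. It was still longer than in any 3MB-PP1 library.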

How the results depend on the processing

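The counts of calls stayed within 1.5 times in 123 of 132 cases, but 92 of these are counts of 0 that stayed 0, in measures where few or no genes pass, and say nothing on stability. The single-gene values kept direction and side of the threshold in 291 of 314. Among peaks with a -log10 q of at least 5, the 2 members called for start-site peak length were ANKRD1 and YAP1 rather than ANKRD1 and TGFB2 (TGFB2 could not be tested there); covered length passed in 2 genes of the pathway list (TEAD2 and CCDC80) and median width in 1 member (ANKRD1), and regions called only with 3MB-PP1 numbered 0, as in lists of equal length (0). Leaving out 1 library, regions of only DMSO lists numbered 0 to 1 (1 without DMSO replicate 3 or 4), and of only 3MB-PP1 lists 1 to 2 (2 without 3MB-PP1 replicate 1). Limma called 1 member for start-site peak length within odd replicate numbers (ANKRD1) and 0 within even ones, fits of 2 against 2 libraries. Small differences changed sign. Covered length of AXL was 0.06 on the log2 scale when scaled to list totals and 0.02 within odd replicates. That of TEAD1 ranged from -0.16 to 0.04 when each library was left out (above 0 without DMSO replicate 3, 0.02, or 3MB-PP1 replicate 4, 0.04), and was 0.12 when scaled and 0.03 within even replicates. That of LATS2 ranged from -0.09 (without DMSO replicate 2) to 0.36. Start-site peak length of LATS2 ranged from -0.14 to 0.04 (without 3MB-PP1 replicate 2) and was 0.02 within even replicates. The cause of these changes was not tested. With the replicate block, 90 genes rather than 217 passed for start-site peak length, and the call on the ANKRD1 start region was lost (limma adjusted p = 0.0912); it changed no other call of a member, with both ANKRD1 and TGFB2 passing (limma adjusted p = 0.0139 and 0.0159). Leaving out each library, the start-site difference ranged from -1.57 to -1.52 for ANKRD1 and from -1.51 to -1.38 for TGFB2, with adjusted p from limma of 0.0018 and 0.00345 at most. Unknown depth limits all statements on peaks not called.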
